A study of Mus musculus with 9 samples.

Results

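Mitochondrial ribosomal protein genes are described here in C2C12 myofibres, across 3 culture media. The members are the 77 gene symbols of the form Mrpl or Mrps followed by a number, pseudogene copies excluded, out of 24063 symbols in the tables and 14006 genes tested. By symbol, 48 belong to the large subunit (Mrpl) and 29 to the small subunit (Mrps). All 77 reached the minimum of 0.5 CPM (counts scaled to library size) averaged over the libraries, and no member was lost to the filter on low counts. C2C12 is an established mouse myoblast line that stops dividing and fuses into fibres in low serum. Wild-type cells were differentiated in DMEM that held 2% fetal bovine serum, and their labelled time is day 3. Control fibres stayed in normal medium, 1C-MIM fibres received 6 metabolites of the one-carbon network (One-Carbon Metabolite Induced Medium), and scramble fibres received 6 metabolites from outside it, with 3 libraries in each group. Metabolite names and doses were not given in the sources used here. No label states that the libraries of a group come from separate cultures, so p-values measure the spread between libraries, which may be technical. In these bulk samples, fewer cells of a type and less RNA per cell cannot be told apart.

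Mitochondria translate their own small set of messenger RNAs, which code for core subunits of the respiratory chain, on a ribosome that descends from a bacterial one. Its ribosomal RNAs come from the mitochondrial genome, but all of its proteins are encoded in the nucleus, made in the cytosol and imported. Some have bacterial counterparts and others exist only in mitochondria. The small subunit reads the messenger RNA, and the large subunit joins the amino acids.

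Symbols do not always match position in the ribosome. Mrps30 and Mrps18a are proteins of the large subunit by structure, and Mrps36 is also known as Kgd4, a part of the 2-oxoglutarate dehydrogenase complex. Ict1 is the older symbol of Mrpl58, a large subunit protein with peptidyl-tRNA hydrolase activity. It was left outside the members because its symbol in the files lies outside the pattern, and its mean was 28 CPM in control, 28.7 CPM in 1C-MIM and 27.6 CPM in scramble. Each gene was read from its transcript with the highest mean count, which for Mrpl48 is a non-coding RefSeq record.

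Promoter sequences of members were read from RefSeq (build GRCm38.p6, matched by symbol) because the members moved together in part and the letters of common promoter motifs in this gene family can be searched. The windows run from 250 bases before to 50 bases after each start, and 68 of the 77 members had an entry. The stretches printed are those just upstream of the start, on the strand of the gene, ending at the last base before it, and capitals mark a motif match. Mrpl12 and Mrpl44, which rose with 1C-MIM, and Mrpl32 and Mrpl9, which were called in neither 1C-MIM comparison, all hold the core of the NRF1 motif, GCANGCG, on 1 or both strands.

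Mrpl12, chr11:120484517-120484636, + strand: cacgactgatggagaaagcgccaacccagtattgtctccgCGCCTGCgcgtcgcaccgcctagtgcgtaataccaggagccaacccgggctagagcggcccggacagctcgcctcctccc

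Mrpl44, chr1:79775898-79776017, + strand: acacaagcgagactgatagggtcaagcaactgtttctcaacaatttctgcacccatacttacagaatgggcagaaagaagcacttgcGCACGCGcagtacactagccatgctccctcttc

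Mrpl32, chr13:14613038-14613157, - strand: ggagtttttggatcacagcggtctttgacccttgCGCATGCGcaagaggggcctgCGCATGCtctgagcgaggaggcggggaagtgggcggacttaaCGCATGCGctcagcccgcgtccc

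Mrpl9, chr3:94443216-94443335, + strand: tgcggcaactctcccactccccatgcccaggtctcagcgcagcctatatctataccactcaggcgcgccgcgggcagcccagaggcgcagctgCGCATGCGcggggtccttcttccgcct

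Mrpl3 and Mrps27, which rose, hold the ETS motif CCGGAAG, in Mrps27 on the other strand.

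Mrpl3, chr9:105053148-105053267, + strand: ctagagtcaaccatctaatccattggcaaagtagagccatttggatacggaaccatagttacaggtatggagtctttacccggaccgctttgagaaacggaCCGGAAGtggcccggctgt

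Mrps27, chr13:99344706-99344785, + strand: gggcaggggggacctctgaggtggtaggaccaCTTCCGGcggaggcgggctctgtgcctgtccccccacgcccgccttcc

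Mrpl28 and Mrps7 are the members with the smallest adjusted p in their subunits. Mrpl28 holds none of the motifs searched, in the stretch printed or in its whole window, and Mrps7 holds the NRF1 core.

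Mrpl28, chr17:26123383-26123502, + strand: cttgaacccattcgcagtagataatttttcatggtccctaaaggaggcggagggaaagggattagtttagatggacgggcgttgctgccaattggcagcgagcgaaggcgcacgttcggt

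Mrps7, chr11:115604052-115604139, + strand: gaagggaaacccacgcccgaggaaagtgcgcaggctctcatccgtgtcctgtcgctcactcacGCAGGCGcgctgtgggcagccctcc

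The stretch that separates the starts of Mrps11 and Mrpl46, which are transcribed away from each other, is 41 bases long.

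Mrps11, chr7:78783090-78783130, + strand: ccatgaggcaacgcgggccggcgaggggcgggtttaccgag

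Each motif was searched on both strands, and overlapping matches of 1 motif count once per promoter. The ETS motif was in 24 of the 68 promoters (35.3%), against 11.9% of 17492 promoters of protein-coding genes with the same window. It was in 10 of the 28 matched members higher with 1C-MIM in both comparisons and in 11 of the 33 called in neither. The NRF1 core was in 28 of 68 (41.2%, against 21.2%), 12 of the 28 and 12 of the 33. The core of the YY1 motif, ATGGCGG, was in 13 of 68 (19.1%, against 5.41%), 8 of the 28 and 4 of the 33. The E-box CACGTG was in 5 of 68 (7.35%, against 7.9%), 3 of the 28 and 2 of the 33. The protein-coding genes set beside them were not limited to the 14006 genes tested here, whereas every member was tested. A higher share than theirs may therefore hold for expressed genes in general, and this was not examined. A match is a description of letters and no test was made on these counts. Mrps11 and Mrpl46 differed in their calls although their starts are so close. Mrps11, a small subunit protein of the bacterial type, had 11.6, 13.2 and 11.3 CPM in control, 14.9, 14.3 and 17.2 CPM in 1C-MIM and 11.2, 12.3 and 13 CPM in scramble, and was called higher against both, but not against scramble without 1C-MIM replicate 3 (edgeR adjusted p = 0.059). Mrpl46, of the central protuberance, had 10.6, 14 and 12.6 CPM in control, 14, 13.1 and 12.5 CPM in 1C-MIM and 11.1, 10.7 and 12.7 CPM in scramble, and was called against neither. The difference between these genes was not tested.

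Levels between genes are compared per transcript length, in the authors' FPKM (fragments per kilobase of transcript, scaled to library size). The mean FPKM over all 9 libraries ranged from 3.02 to 112 in the large subunit, with a median of 17.5, and from 5.64 to 59.3 in the small subunit, with a median of 15.7. The members thus differed widely in FPKM within each subunit. FPKM divides by the length of the chosen transcript. All transcript lengths given here were worked out from the authors' counts and FPKM, and came to 466 bases for Mrpl33 and 6712 bases for Mrpl17. The order therefore depends on transcript length and differs from the order in CPM. In control, Mrpl13 (mean 87.5 CPM) was above Mrpl33 (mean 83.6 CPM). Mrpl33, a small protein of the bacterial type, was highest, with 101, 116 and 113 FPKM in control, 114, 122 and 124 FPKM in 1C-MIM and 98.8, 112 and 106 FPKM in scramble. Mrpl52, of the central protuberance, had 62.5, 72.6 and 70.5 FPKM in control, 69.1, 77.8 and 77.8 FPKM in 1C-MIM and 63.3, 68.9 and 69.2 FPKM in scramble. Mrpl13 had 60.7, 72.2 and 71.5 FPKM in control, 58, 60.6 and 58 FPKM in 1C-MIM and 62.4, 70.7 and 75.1 FPKM in scramble. In FPKM, Mrpl33 was above every other member in all libraries, whereas the ranges of Mrpl52 and Mrpl13 overlapped. The lowest of the large subunit were Mrpl35, Mrpl17 and Mrpl19. Mrpl35 had 2.34, 3.40 and 3.16 FPKM in control, 3.13, 3.30 and 3.03 FPKM in 1C-MIM and 2.71, 2.97 and 3.10 FPKM in scramble. Mrpl17, a protein of the tunnel exit whose chosen transcript is 6712 bases long, had 3.29, 3.66 and 3.68 FPKM in control, 3.86, 3.52 and 3.67 FPKM in 1C-MIM and 3.30, 3.34 and 3.44 FPKM in scramble. Mrpl19, with a transcript of 5000 bases, had 3.74, 4.08 and 3.79 FPKM in control, 4.42, 4.01 and 4.13 FPKM in 1C-MIM and 3.61, 3.73 and 3.73 FPKM in scramble. Neighbours at this end of the order overlapped in range.

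In the small subunit Mrps21 was highest, with 50.2, 60.5 and 60.2 FPKM in control, 63.2, 67.6 and 67.8 FPKM in 1C-MIM and 47.8, 58.7 and 58 FPKM in scramble. Mrps16 followed with 32.1, 38.2 and 36.5 FPKM in control, 32.9, 29.9 and 32.2 FPKM in 1C-MIM and 32.1, 35.9 and 41 FPKM in scramble. Mrps18c had 29.8, 36.4 and 34.3 FPKM in control, 25.8, 30.1 and 31 FPKM in 1C-MIM and 30.3, 32.3 and 32.8 FPKM in scramble. The libraries of Mrps21 lay above all those of Mrps16, and those of Mrps16 and Mrps18c overlapped. Mrps25, from a transcript of 6065 bases, was lowest, with 5.85, 5.71 and 5.78 FPKM in control, 5.70, 5.28 and 5.32 FPKM in 1C-MIM and 5.65, 5.57 and 5.91 FPKM in scramble. Mrps11 (mean 7.67 FPKM, range 6.52 to 9.82) and Mrps2 (mean 8.62 FPKM, range 7.81 to 9.74) were next, with overlapping ranges. By CPM, which is not divided by length, Mrps25 instead had the highest mean of the small subunit in control (57.3 CPM). In the plot of levels per length, the order of the genes spans a far wider range than the 3 groups of any 1 gene.

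**Figure D1:**
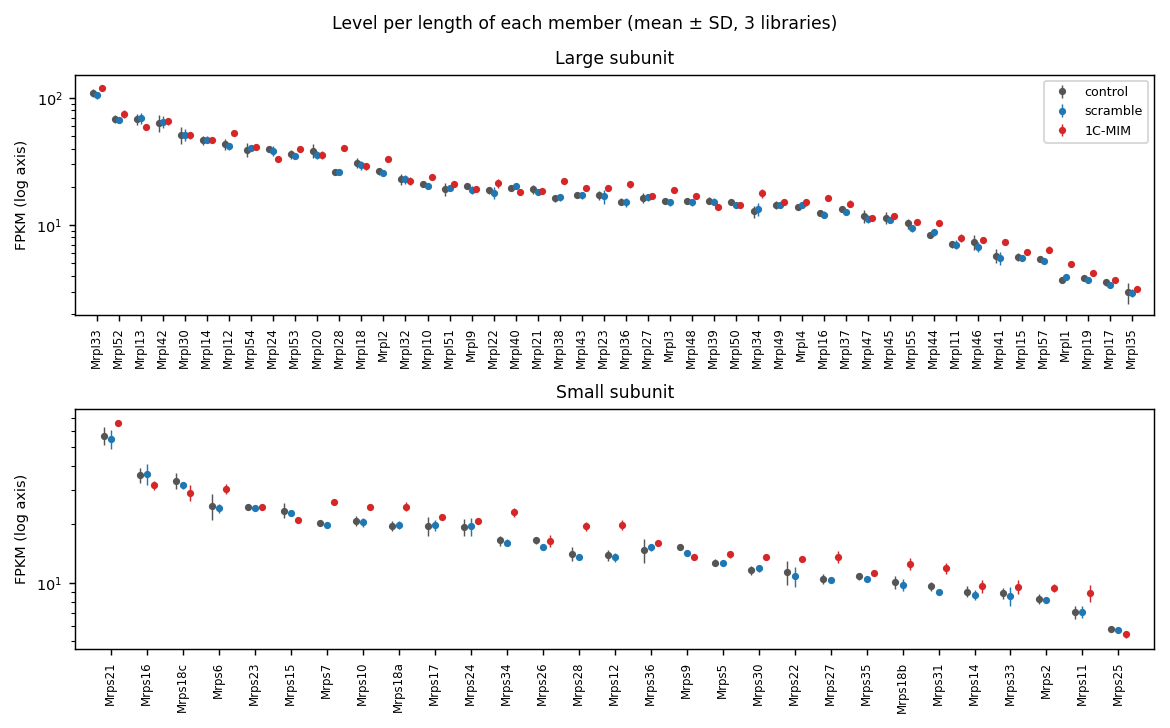
FPKM of each member on a log axis, mean ± SD over 3 libraries, for control (grey), scramble (blue) and 1C-MIM (red), with the large subunit above and the small subunit below, genes ordered by their mean over all libraries. Mrpl33 (mean 112 FPKM) and Mrps21 (mean 59.3 FPKM) stand at the top of their subunits, and Mrpl35 (3.02 FPKM) and Mrps25 (5.64 FPKM) at the bottom.

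Count totals were 29 to 33.2 M per library with 1 transcript per gene. All 12 muscle fibre markers were found at a mean of at least 1 CPM, with a summed level of 5800 to 10400 CPM in control, 8300 to 10200 CPM in 1C-MIM and 6580 to 8780 CPM in scramble. The 8 markers of undifferentiated or cycling myoblasts summed to 1220 to 1550 CPM in control, 680 to 806 CPM in 1C-MIM and 1280 to 1490 CPM in scramble. With 1C-MIM, 6 of these 8 fell and 1 rose against control, 5 fell and 1 rose against scramble, and 4 of the 12 fibre markers rose and 1 fell against each. Over all genes tested, 22.9% rose in each comparison, and 24.3% fell against control and 23.2% against scramble. No marker of the 7 for other lineages (fat, bone, blood, vessel) reached a mean of 1 CPM. The part of these marker differences in the results on the members was not tested.

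Control replicate 1 stood apart before any comparison. It was the lowest of its group for 61 of the 77 members, and scramble replicate 1 for 56 and 1C-MIM replicate 1 for 37. The median deviation of members from their group mean was -0.11 on the log2 scale in the large subunit and -0.10 in the small subunit in control replicate 1, and -0.08 and -0.06 in scramble replicate 1. The members furthest below were Mrpl35 (-0.33), Mrpl42 (-0.28), Mrps6 (-0.27) and Mrpl30 (-0.26) in control replicate 1, and Mrpl43 (0.09), Mrpl37 (0.08) and Mrpl57 (0.06) lay above the group mean. Across the 77 members the deviations in control replicate 1 correlated with those in scramble replicate 1 at r = 0.52 (rho = 0.49) and with those in 1C-MIM replicate 1 at r = 0.31 (rho = 0.31). The first 2 each correlated with log2 transcript length with r = 0.32. These are descriptions across genes of the same libraries, which are not independent replicates. Over all genes tested, the deviations in control replicate 1 and scramble replicate 1 also correlated (r = 0.48). How often a library was the lowest of its group was not counted over all genes. The pattern may thus not be particular to the members. Replicate 1 of each group also held the highest summed fibre markers of that group, at 10400 CPM in control, 10200 CPM in 1C-MIM and 8780 CPM in scramble. Counts are therefore also given without the 3 libraries numbered 1.

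**Figure D2:**
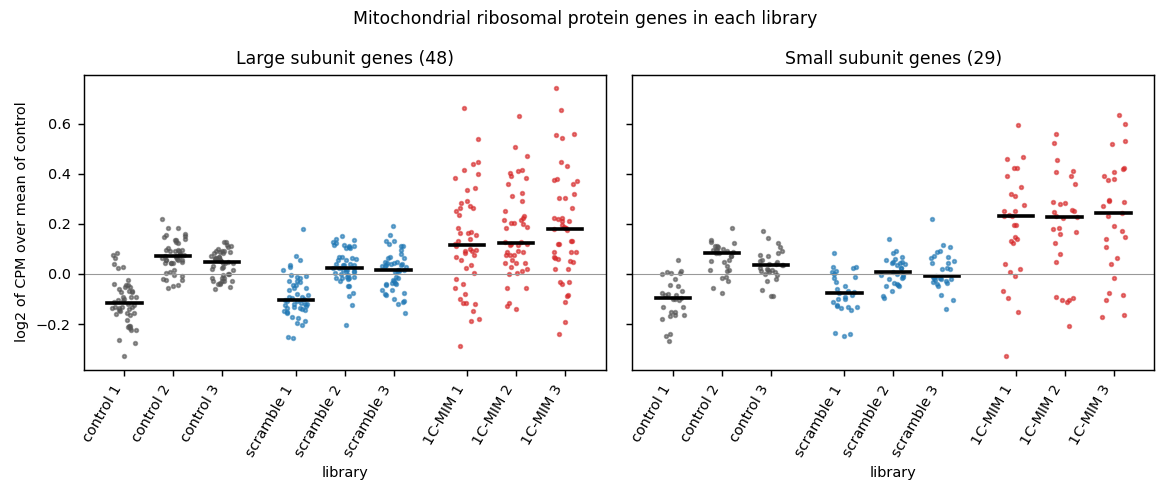
Log2 of the CPM of each member over the mean log2 CPM of the 3 control libraries, by library, for the large subunit (48 genes, left) and the small subunit (29 genes, right), with each point a gene and the bar the median. The medians of the 1C-MIM libraries lie at 0.11 to 0.18 (large) and 0.23 to 0.25 (small), and control replicate 1 lies at -0.11 and -0.10.

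Set against normal medium, 1C-MIM shows how the fibres differed once one-carbon metabolites were added. More members were higher than lower with 1C-MIM in both subunits, and the changes were small. In the large subunit 18 of 48 genes rose and 1 fell, at a median log2 fold change of 0.15 and a range of -0.22 to 0.68. In the small subunit 15 of 29 rose and 1 fell, with a median of 0.22 and a range of -0.17 to 0.55. Over all 14006 genes tested 47.3% were called in either direction, 22.9% higher and 24.3% lower, with a median of -0.01. The share of members called in either direction (39.6% large, 55.2% small) was thus near the background. By direction, 37.5% of the large and 51.7% of the small subunit genes were called higher, above the background share, and 2.08% and 3.45% lower, below it. Calls are edgeR quasi-likelihood tests at a Benjamini-Hochberg adjusted p below 0.05 over all genes. All 3 libraries of 1C-MIM were above all 3 of control for 22 large and 19 small subunit genes, where 27.3% of all genes were, and below for 2 and 1, where 28.2% of all genes were. With library size alone as the scale, which moved the median of all genes to -0.06, the counts were 13 higher and 3 lower in the large subunit and 13 and 1 in the small subunit, where 18.6% of all genes were higher and 28.3% lower. Without control replicate 1 the large subunit median fell to 0.09, with 15 genes higher. Without the 3 libraries numbered 1 the large subunit had 21 higher and 3 lower, with a median of 0.09, and the small subunit 14 higher and 3 lower, with a median of 0.15. In that fit the share over all genes was also greater, at 28% higher and 28.5% lower.

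Against scramble, which shares the 1C-MIM libraries with the comparison above, 21 of 48 large subunit genes rose and 1 fell (median 0.18), and 16 of 29 small subunit genes rose and 0 fell (median 0.20). Over all genes 46% were called, 22.9% higher and 23.2% lower. Non-overlapping libraries were found for 26 higher and 1 lower large subunit genes and 19 higher and 1 lower small subunit genes, against 29.7% and 29.9% of all genes. With library size alone the counts were 19 higher and 3 lower in the large subunit and 15 and 0 in the small subunit, where 19.6% of all genes were higher and 26.1% lower. Without the libraries numbered 1 they were 23 higher and 4 lower (median 0.15) and 16 higher and 1 lower (median 0.18), where 27.4% of all genes were higher and 27.8% lower. The 31 members called higher in each comparison comprised 16 of the large and 15 of the small subunit. Mrpl4 and Mrpl11 were called higher against control alone, and Mrpl15, Mrpl19, Mrpl22, Mrpl33, Mrpl48 and Mrps22 against scramble alone, which does not show that the comparisons differ for them. Of the calls, 10 against control (Mrpl4, Mrpl11, Mrpl24, Mrpl37, Mrpl43, Mrpl53, Mrps5, Mrps6, Mrps9 and Mrps21) were lost when 1 library was left out, with edgeR adjusted p = 0.050 to 0.183. Against scramble 14 were (Mrpl13, Mrpl15, Mrpl19, Mrpl22, Mrpl33, Mrpl43, Mrpl48, Mrpl53, Mrps5, Mrps6, Mrps11, Mrps21, Mrps22 and Mrps30), with edgeR adjusted p = 0.052 to 0.190. In each comparison every one of the 6 libraries, left out alone, ended at least 1 of these calls. The remaining members comprised 35 called in neither and 3 with a fall in 1 of the comparisons. For 38 members (20 large and 18 small) all 1C-MIM libraries lay above all 6 others, as they did for 24.3% of all genes. For 0 members all 1C-MIM libraries lay below all 6 others, as they did for 24.6% of all genes.

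**Figure D3:**
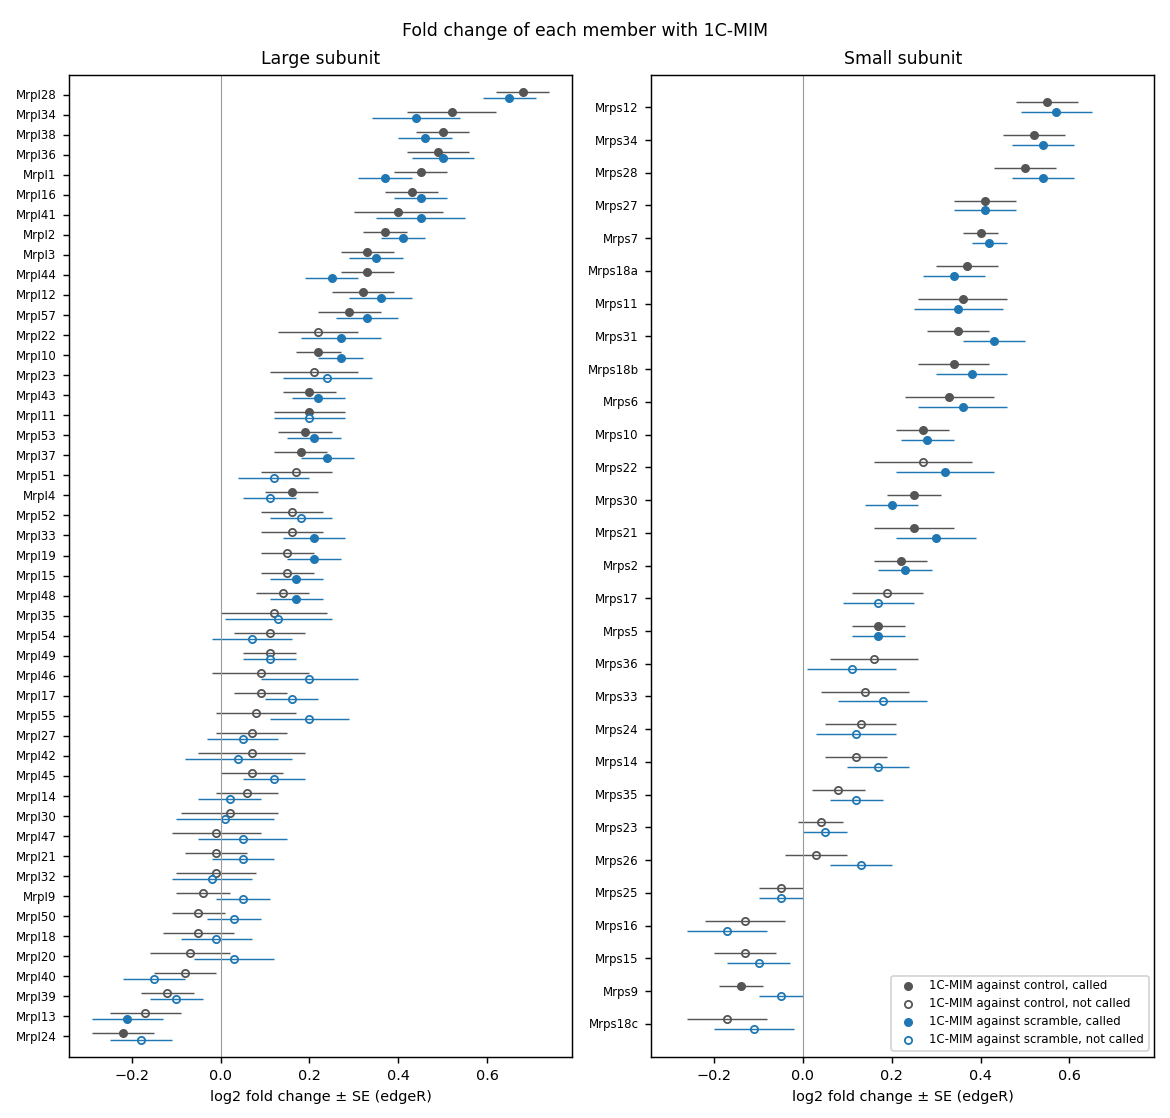
Log2 fold change ± SE (edgeR) of each member for 1C-MIM against control (grey) and against scramble (blue), with filled points called at an adjusted p below 0.05 and open points not called, for the large subunit (left) and the small subunit (right). Most points lie right of 0, with Mrpl28 (0.68 and 0.65) and Mrps12 (0.55 and 0.57) at the top and Mrpl24 (-0.22 and -0.18) and Mrps18c (-0.17 and -0.11) at the bottom.

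The summed level of the large subunit genes was 1671, 1900 and 1858 CPM in control, 1958, 2003 and 2038 CPM in 1C-MIM and 1698, 1844 and 1828 CPM in scramble. All 3 1C-MIM libraries were above the other 6, by little over control replicate 2. The sum of the small subunit genes was 797, 881 and 869 CPM in control, 961, 961 and 977 CPM in 1C-MIM and 809, 852 and 856 CPM in scramble, again with no overlap. The ratio of the large to the small subunit sum was 2.13 ± 0.031 in control, 2.14 ± 0.035 in scramble and 2.07 ± 0.026 in 1C-MIM (SD, n = 3). Split by symbol, every 1C-MIM library (2.04, 2.08 and 2.09) was below every control library (2.10, 2.16 and 2.14) and every scramble library (2.10, 2.17 and 2.14). The gap was narrow, between 2.09 in 1C-MIM replicate 3 and 2.10 in control and scramble replicate 1. This split counts Mrps30 and Mrps18a, large subunit proteins by structure that both rose, with the small subunit. With these genes counted as large, the separation from control does not hold, since the ratio of 1C-MIM replicate 3 then lies above that of control replicate 1. The ratio was not tested, since it is a score over chosen members.

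In the large subunit the widest rise was in Mrpl28, a protein with a bacterial counterpart. Its level was 42.5, 47.6 and 45.8 CPM in control, 71.6, 70.1 and 75.7 CPM in 1C-MIM and 44.4, 47.2 and 46.6 CPM in scramble. The 1C-MIM libraries stood far above the 6 others, which overlapped each other. The log2 fold change was 0.68 ± 0.06 against control (edgeR adjusted p = 6.8e-06) and 0.65 ± 0.06 against scramble (adjusted p = 9.6e-06). For the genes that follow, a pair of log2 fold changes ± SE in parentheses gives 1C-MIM against control and then against scramble, in that order. Mrpl34, also of the bacterial type, had 11.8, 14.1 and 14.5 CPM in control, 18.3, 18.6 and 21.1 CPM in 1C-MIM and 12.5, 14.9 and 15.3 CPM in scramble, with no overlap (0.52 ± 0.10 and 0.44 ± 0.10). Mrpl36, whose bacterial counterpart is among the smallest ribosomal proteins, had 21.1, 22.6 and 23.9 CPM in control, 29.7, 32 and 33.1 CPM in 1C-MIM and 20.5, 23.6 and 23.1 CPM in scramble, with no overlap (0.49 ± 0.07 and 0.50 ± 0.07). Mrpl36 shares exon bases with Ndufs6 on the opposite strand, which was not called in either comparison (0.11 and 0.14).

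Mrpl38, a mitochondria-specific protein of the central protuberance, where the large subunit contacts the small one, had 35.5, 36.6 and 39.7 CPM in control, 54, 49.5 and 54.6 CPM in 1C-MIM and 37.9, 40.6 and 36.6 CPM in scramble. It rose by 0.50 ± 0.06 against control (edgeR adjusted p = 1.0e-04) and 0.46 ± 0.06 against scramble (adjusted p = 1.9e-04). Mrpl1, the counterpart of the bacterial protein of the mobile stalk where transfer RNA leaves, had 21.6, 20.9 and 20.6 CPM in control, 28, 27.6 and 30.6 CPM in 1C-MIM and 20.9, 23.1 and 22.7 CPM in scramble (0.45 ± 0.06 and 0.37 ± 0.06). Mrpl16, whose bacterial counterpart lies near the peptidyl transferase centre, had 21.9, 22.8 and 23.5 CPM in control, 30.8, 30.3 and 30.6 CPM in 1C-MIM and 20.9, 23.6 and 22.5 CPM in scramble (0.43 ± 0.06 and 0.45 ± 0.06). Mrpl41, a mitochondria-specific protein, had 19.5, 25 and 23.6 CPM in control, 29.4, 29.4 and 30.8 CPM in 1C-MIM and 18.9, 23.2 and 23.6 CPM in scramble (0.40 ± 0.10 and 0.45 ± 0.10). For Mrpl38, Mrpl1, Mrpl16 and Mrpl41 alike the 1C-MIM libraries were above the 6 others. These 7 genes include the 5 largest rises of the large subunit in each comparison.

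By position, the stalk that recruits translation factors has 4 genes, of which 4 were called higher against control and 3 against scramble, where 22.9% of all genes were in each comparison. Mrpl12, which is present in several copies in the stalk, had 59.9, 71.9 and 69.5 CPM in control, 81.8, 82.9 and 86.4 CPM in 1C-MIM and 61.2, 66.4 and 67.6 CPM in scramble, with no overlap (0.32 ± 0.07 and 0.36 ± 0.07). Mrpl10, which anchors it, had 59.3, 56.0 and 59.2 CPM in control, 69.7, 67.5 and 66.0 CPM in 1C-MIM and 55.7, 57 and 55.6 CPM in scramble, also with no overlap (0.22 ± 0.05 and 0.27 ± 0.05). Mrpl53 was called in each comparison (0.19 ± 0.06 and 0.21 ± 0.06), but not with library size alone or the compared groups alone against control, or when 1 of several libraries was left out (edgeR adjusted p = 0.055 to 0.103 against control and 0.055 to 0.081 against scramble). Mrpl11, with 31, 35.5 and 33.2 CPM in control, 35.5, 38.2 and 40.9 CPM in 1C-MIM and 30.8, 35.8 and 33.5 CPM in scramble, overlapped in range and had edgeR adjusted p = 0.049 against control and 0.056 against scramble. Its call against control was lost with library size alone, no filter, the mean CPM filter, DESeq2, limma-voom and the compared groups alone, and without control replicate 1 or 3 or 1C-MIM replicate 2 or 3 (adjusted p = 0.050 to 0.183). Of 7 central protuberance genes 1 (Mrpl38) rose against control and 2 (Mrpl38 and Mrpl48) against scramble. Of 6 tunnel exit genes 0 rose and 1 (Mrpl24) fell against control, and 1 (Mrpl22) rose and 0 fell against scramble. Over all genes 24.3% were called lower against control and 23.2% against scramble. The differences between positions were not tested.

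Members with bacterial counterparts and mitochondria-specific members were counted apart, and the difference between them was not tested. Over all genes 22.9% were called higher in each comparison. Of 30 bacterial-type large subunit genes 11 rose and 1 fell against control and 13 rose and 1 fell against scramble. Of 20 mitochondria-specific large subunit genes, Mrps30 and Mrps18a among them, 9 rose and 0 fell, and 10 rose and 0 fell. Mrps30 had 28.2, 31.7 and 30.6 CPM in control, 35.4, 35.3 and 37 CPM in 1C-MIM and 29.9, 31.6 and 32.1 CPM in scramble (0.25 ± 0.06 and 0.20 ± 0.06). Mrps18a had 25.7, 29.2 and 27.9 CPM in control, 36.9, 33.5 and 36.5 CPM in 1C-MIM and 29.2, 28.5 and 26.8 CPM in scramble (0.37 ± 0.07 and 0.34 ± 0.07). The 1C-MIM libraries of each gene were above the 6 others. Mrps30 was not called against scramble without 1C-MIM replicate 3 or scramble replicate 1 (edgeR adjusted p = 0.062 and 0.059). In the small subunit 9 of 16 bacterial-type genes rose and 1 fell against control, 9 rose and 0 fell against scramble, and 4 and 5 of the 10 mitochondria-specific genes rose with 0 falls.

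Mrps18a, Mrps18b and Mrps18c are related in sequence family to the bacterial protein S18, and were not all called. Mrps18a was counted above as mitochondria-specific because it lies in the large subunit, where the bacterial ribosome has no protein of this family, and it rose. Mrps18b, of the small subunit, had 15.9, 18.5 and 17.9 CPM in control, 23.3, 20.4 and 22.6 CPM in 1C-MIM and 15.9, 16.6 and 18.3 CPM in scramble (0.34 ± 0.08 and 0.38 ± 0.08), with no overlap. Mrps18c, the closest in place to the bacterial protein, had 24.4, 29.9 and 28.1 CPM in control, 21.8, 25.3 and 26 CPM in 1C-MIM and 25.1, 26.6 and 27.1 CPM in scramble. Its ranges overlapped and it was not called (-0.17 ± 0.09 and -0.11 ± 0.09). The differences between these 3 genes were not tested.

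Among small subunit genes Mrps12, whose bacterial counterpart sits at the decoding centre and affects accuracy, rose most. It had 15, 16.7 and 14.8 CPM in control, 21.3, 22.8 and 24 CPM in 1C-MIM and 14.6, 15.9 and 15.2 CPM in scramble, with no overlap between 1C-MIM and the rest. The log2 fold change was 0.55 ± 0.07 against control (edgeR adjusted p = 1.6e-04) and 0.57 ± 0.08 against scramble (adjusted p = 1.4e-04). Mrps34, a mitochondria-specific protein, had 24.3, 25.7 and 22.8 CPM in control, 36.6, 34.8 and 32.5 CPM in 1C-MIM and 24.7, 22.8 and 23.9 CPM in scramble (0.52 ± 0.07 and 0.54 ± 0.07). Mrps28, of the bacterial type, had 15.1, 17.7 and 17 CPM in control, 22.9, 22.7 and 25.1 CPM in 1C-MIM and 16, 16.5 and 16.2 CPM in scramble (0.50 ± 0.07 and 0.54 ± 0.07). Again the 1C-MIM libraries of Mrps34 and Mrps28 were above the 6 others.

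Mrps7, whose bacterial counterpart in the head of the small subunit contacts transfer RNA, varied little between the libraries of a group. It had 43.8, 43.2 and 44 CPM in control, 57.3, 57.2 and 58.3 CPM in 1C-MIM and 44, 42.2 and 43.2 CPM in scramble (0.40 ± 0.04 with edgeR adjusted p = 3.5e-05, and 0.42 ± 0.04 with adjusted p = 3.2e-05). Mrps7 shares exon bases with Gga3 and Mif4gd on the opposite strand, and of these Gga3 was called higher against scramble (0.29) but not against control (0.04). Mrps27, a pentatricopeptide repeat protein, had 31.2, 30 and 33.7 CPM in control, 40.2, 40.5 and 45.7 CPM in 1C-MIM and 32.2, 32.1 and 31.1 CPM in scramble (0.41 ± 0.07 and 0.41 ± 0.07). Mrps27 shares exon bases with 6430562O15Rik, a non-coding gene on the opposite strand with a mean of 8.91 CPM that was called higher in each comparison (0.35 and 0.50), so their reads may not be told apart. Mrps31, a mitochondria-specific protein, had 22.8, 25.4 and 24.3 CPM in control, 28.4, 32.1 and 31.7 CPM in 1C-MIM and 23, 23.4 and 21.9 CPM in scramble (0.35 ± 0.07 and 0.43 ± 0.07). The 1C-MIM libraries of these 3 genes were above the 6 others. Mrps6 rose by 0.33 ± 0.10 and 0.36 ± 0.10, and shares exon bases on the same strand with Slc5a3, a myo-inositol transporter gene that rose by 0.40 and 0.46, so reads of the shared exon cannot be told apart. The call of Mrps6 was lost against control without 1C-MIM replicate 2 or 3 (edgeR adjusted p = 0.070 and 0.060) and against scramble without 1C-MIM replicate 2 (adjusted p = 0.052).

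**Figure D4:**
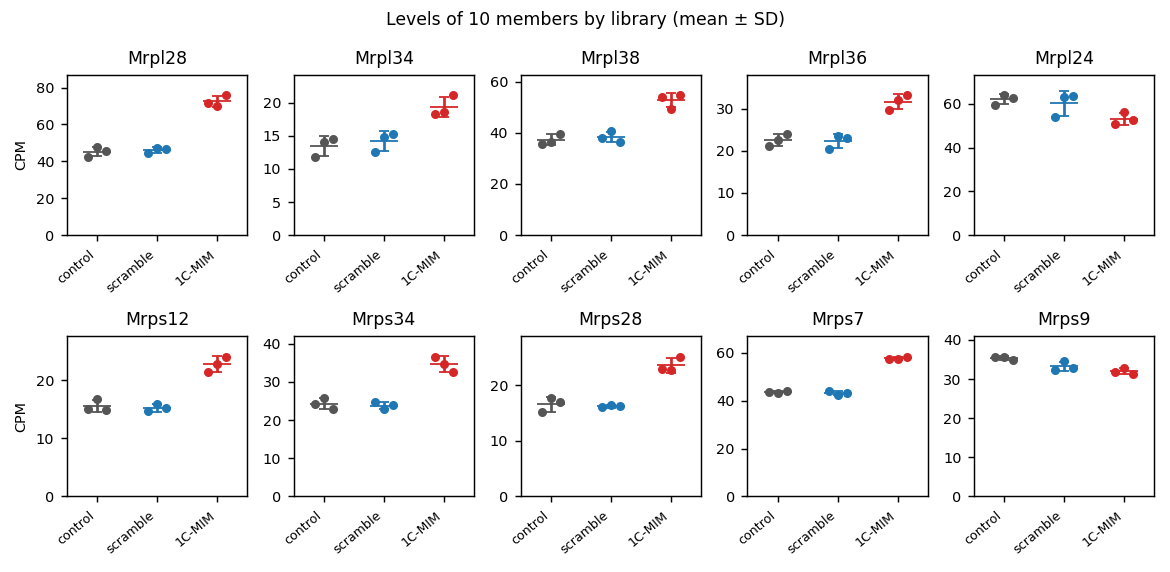
CPM in each library (points) with mean ± SD (bars, n = 3) for 5 large subunit genes (top) and 5 small subunit genes (bottom) in control, scramble and 1C-MIM, with every axis starting at 0. The 1C-MIM points of Mrpl28, Mrpl34, Mrpl38, Mrpl36, Mrps12, Mrps34, Mrps28 and Mrps7 lie above all others, those of Mrps9 lie below control and those of Mrpl24 overlap scramble.

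Falls were few. No member was called lower in both comparisons, but with a replicate block in the fit, or with library size alone as the scale, Mrpl13 and Mrpl24 were lower in both. Mrpl24, of the bacterial type at the tunnel exit, had 59.4, 63.8 and 62.8 CPM in control, 50.8, 56.3 and 52.5 CPM in 1C-MIM and 53.8, 63.0 and 63.7 CPM in scramble. The 1C-MIM libraries were below every control library and overlapped scramble replicate 1. The log2 fold change was -0.22 ± 0.07 against control (edgeR adjusted p = 0.023) and -0.18 ± 0.07 against scramble (adjusted p = 0.06). Mrpl24 shares exon bases with Rrnad1 on the opposite strand (-0.15 and -0.07, not called). Mrpl13, of the bacterial type, had 77.8, 93.0 and 91.8 CPM in control, 76.6, 79.8 and 76.4 CPM in 1C-MIM and 81.0, 91.2 and 97.3 CPM in scramble. Its 1C-MIM libraries were below every scramble library and overlapped control replicate 1, with -0.21 ± 0.08 against scramble (edgeR adjusted p = 0.049) and -0.17 ± 0.08 against control (adjusted p = 0.094). It shares exon bases with Mtbp, on the opposite strand. Mrps9, of the bacterial type, had 35.6, 35.7 and 34.9 CPM in control, 31.9, 32.9 and 31.4 CPM in 1C-MIM and 32.4, 34.5 and 32.9 CPM in scramble. Its fall was -0.14 ± 0.05 against control (edgeR adjusted p = 0.035), and against scramble the value was -0.05 ± 0.05 (adjusted p = 0.417). These calls were lost when any of several libraries was left out, while the log2 fold changes stayed at -0.26 to -0.19 for Mrpl24 against control, -0.28 to -0.15 for Mrpl13 against scramble and -0.16 to -0.13 for Mrps9 against control. Mrpl24 was not called against control without control replicate 2 or 3 or without 1C-MIM replicate 1 or 3 (edgeR adjusted p = 0.061 to 0.083), but was called against scramble without scramble replicate 1 (-0.25, adjusted p = 0.0081). Mrpl13 was not called against scramble when any 1C-MIM library, scramble replicate 2 or scramble replicate 3 was left out (adjusted p = 0.082 to 0.190). Mrps9 was not called against control when any control library, 1C-MIM replicate 1 or 1C-MIM replicate 3 was left out (adjusted p = 0.051 to 0.111). Without control replicate 1, Mrpl13 (-0.25, adjusted p = 0.0049), Mrpl20, Mrps15 and Mrps18c were also lower against control. Without the 3 libraries numbered 1, Mrpl13, Mrpl24, Mrpl39 and Mrps16 were lower against control and against scramble alike.

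In all, 17 of the 77 members share exon bases with a protein-coding gene in the GENCODE M21 annotation, and strand use in the counting was not given in the sources used here. Without these 17, a choice made after the data were seen, 15 of 35 large subunit genes rose and 0 fell against control and 16 rose and 0 fell against scramble. Of 25 small subunit genes 12 rose and 1 fell against control and 13 rose and 0 fell against scramble. There are 5 named pseudogene copies of members, whose reads the counting could split.

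The comparison of scramble with control asks what metabolites from outside the one-carbon network changed. No member and no gene was called by edgeR (0 of 14006, 0.0%), and 482 genes had an unadjusted p below 0.05, with 0 members among them. limma-voom also called 0 genes, and DESeq2 called 30 genes higher and 0 lower, with 0 members among them. Without the libraries numbered 1 edgeR called 81 genes higher (0.578%) and 15 lower (0.107%), and without control replicate 1 alone 2 higher and 1 lower, again with 0 members among them. The median log2 fold change was -0.02 in each subunit, within a range of -0.12 to 0.08. Mrps9 (-0.09 ± 0.05, unadjusted p = 0.095), Mrps26 (-0.10 ± 0.07, unadjusted p = 0.153) and Mrps31 (-0.09 ± 0.07, unadjusted p = 0.222) had the smallest p in the small subunit by edgeR, each with adjusted p = 1.000. The libraries of Mrps9 did not overlap, nor did those of Mrps26, with 27, 25 and 25.9 CPM in control and 24, 24.3 and 24.5 CPM in scramble. They were the 2 small subunit genes of which this was true with scramble lower, as it was for 4.26% of all genes, and 0 members had scramble libraries above all control libraries, against 4.83% of all genes. In the large subunit the smallest unadjusted p by edgeR were those of Mrpl9 (0.174), Mrpl55 (0.180) and Mrpl50 (0.218), each with adjusted p = 1.000. Mrpl9 had 51.4, 55 and 52.3 CPM in control and 46.9, 49.7 and 53.4 CPM in scramble. Mrpl55 had 11.8, 13.7 and 14.1 CPM in control and 11.5, 13 and 11.8 CPM in scramble. Mrpl50 had 50.9, 54.9 and 51.9 CPM in control and 48.3, 52.9 and 48.4 CPM in scramble, and the groups of these 3 genes overlapped.

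**Figure D5:**
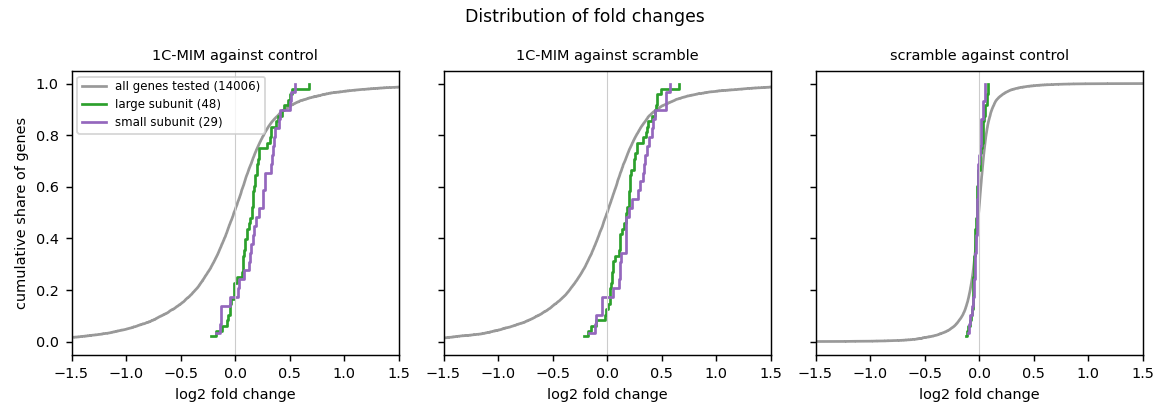
Cumulative share of genes by log2 fold change (x axis limited to the range shown) for all 14006 genes tested (grey), the 48 large subunit genes (green) and the 29 small subunit genes (purple), in each comparison. The curves of both subunits lie right of that of all genes around 0 in the 1C-MIM panels (medians 0.15 and 0.22 against control), and near 0 between scramble and control (median -0.02 in each subunit).

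Genes of the same pathway with other names were read from lists, whose counts stand beside 22.9% of all genes called higher in each comparison, 24.3% lower against control and 23.2% lower against scramble. Of 5 mitoribosome proteins with other symbols 3 rose against control and 4 against scramble, with 0 falls. Gadd45gip1, a large subunit protein also known as CRIF1, had 93.5, 92.1 and 98.9 CPM in control, 146, 143 and 144 CPM in 1C-MIM and 91.4, 92.4 and 96.2 CPM in scramble, with no overlap (0.60 ± 0.04 and 0.63 ± 0.04). Ptcd3 (0.17 and 0.19) and Dap3 (0.13 and 0.13), of the small subunit, rose less, and Aurkaip1 was called against scramble alone (0.11 and 0.16). Of 25 assembly factors 10 rose and 4 fell in each comparison, so 56% were called in either direction, near the 47.3% and 46% of all genes. Mrm1, which methylates a ribose in the large ribosomal RNA, fell from 10.9, 12.7 and 12 CPM in control to 6.62, 5.97 and 6.02 CPM in 1C-MIM, with 9.68, 11.4 and 11.2 CPM in scramble (-0.94 ± 0.10 and -0.79 ± 0.10). Ngrn, an RNA-binding factor of large subunit assembly, fell by 0.43 and 0.39 on the log2 scale. The RNA helicase Dhx30 (0.41 and 0.37) and the GTPase Noa1 (0.53 and 0.47) rose.

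Of 12 translation factors 6 rose and 1 fell against control, and 6 rose and 0 fell against scramble, so 58.3% and 50% were called, against 47.3% and 46% of all genes. Mtrf1l, a release factor, had 6.99, 6.32 and 7.14 CPM in control, 10.1, 11.8 and 12.2 CPM in 1C-MIM and 5.89, 6.25 and 6.72 CPM in scramble (0.74 ± 0.10 and 0.86 ± 0.10). The initiation factor Mtif2 (0.37 and 0.45), the elongation factor Tufm (0.31 and 0.26) and its exchange factor Tsfm (0.18 and 0.30) rose. Mtfmt, which uses a folate to formylate the initiator transfer RNA, rose by 0.34 ± 0.10 and 0.27 ± 0.10. Of 12 genes for transfer RNA modification and processing 6 rose against control and 8 against scramble, with 0 falls (50% and 66.7% called). Mto1, which with Gtpbp3 modifies a wobble base in a reaction that needs folate, had 9.88, 13.2 and 12.1 CPM in control, 19, 18.1 and 17.5 CPM in 1C-MIM and 11.9, 12.1 and 12.4 CPM in scramble (0.63 ± 0.10 and 0.59 ± 0.10). Gtpbp3 rose by 0.19 and 0.23, the RNA methyltransferase Nsun3 by 0.59 and 0.49 and the pseudouridine synthase Pus1 by 0.39 and 0.54. Of 17 mitochondrial transfer RNA synthetases 7 rose and 2 fell against control and 7 rose and 1 fell against scramble (52.9% and 47.1% called), with Ears2 at 0.59 and 0.59, Cars2 at 0.46 and 0.55 and Nars2 at -0.41 and -0.30.

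Of 7 genes of mitochondrial transcription 3 rose and 0 fell in each comparison (42.9% called, against 47.3% and 46% of all genes): the polymerase Polrmt (0.38 and 0.38), the elongation factor Tefm (0.47 and 0.37) and the RNA-binding protein Lrpprc (0.29 and 0.27). Among 9 regulators 3 rose and 2 fell against control, and 4 rose and 2 fell against scramble (55.6% and 66.7% called). Ppargc1a, the coactivator of mitochondrial biogenesis, stood at a low level, with 1.04, 0.836 and 0.565 CPM in control, 1.83, 1.86 and 2.79 CPM in 1C-MIM and 1.06, 0.58 and 0.849 CPM in scramble (1.41 ± 0.29 and 1.37 ± 0.29). Myc rose by 0.33 and 0.35. Nrf1, the factor whose motif was searched above, fell by 0.28 in each comparison, with 32.4, 34.4 and 35.4 CPM in control, 29.1, 28.2 and 26.9 CPM in 1C-MIM and 35.9, 33.2 and 33.4 CPM in scramble. Gabpb1, a subunit of an ETS-family factor complex, fell by 0.34 and 0.26. Gabpa, of the same complex, was not called (0.02 and 0.05). Yy1, whose motif was also searched, was called higher against scramble alone (0.03 and 0.14). A link between these genes and the motifs was not tested. Cytosolic ribosomal protein genes, for comparison, had 0 rises and 8 falls among 76 (10.5%) in each comparison, with medians of -0.14 and -0.12. The difference between cytosolic and mitochondrial ribosomal protein genes was not tested.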

How the data were processed

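Per the file headers, each of the 9 deposited tables gives, for every RefSeq transcript, its count, TPM and FPKM. The authors' counts are whole numbers and were used for all tests. The authors' FPKM, scaled to transcript length and library total, served to compare levels between genes. The authors' TPM values were not used. The submitters' processing notes name the build GRCm39 and, without roles, STAR, featureCounts, DESeq2 1.28.0, Subread 2.0.1, bedtools 2.30.0, StringTie 2.2.1, Picard 2.27.4, SAMtools 1.15.1, Salmon 1.5.2 and Trim Galore 0.6.7. Per the labels' protocols, 1.3 µg of total RNA per library (RNeasy) entered a SMARTer mRNA-seq kit.

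Each symbol was represented by its transcript with the highest mean count. Genes were fitted with edgeR 4.0.16 (R 4.3.3, limma 3.58.1), with filterByExpr, TMM factors (0.981 to 1.019), robust quasi-likelihood tests, 1 fit of all 9 libraries and p-values adjusted by Benjamini-Hochberg over 14006 genes. The fit was also run on simulated independent libraries with few changed genes and no shift in the libraries numbered 1. That setting is simpler than these data, so it does not measure how the fit performs here. CPM use TMM-scaled totals. Fold changes are log2 values ± SE. Transcripts of a gene often carry nearly the same deposited count, so counts were not summed over them. Alternatives were limma-voom, DESeq2 1.42.0, other filters and scalings, only the groups compared, a replicate block, the mean over transcripts, a stricter threshold, subunits by structure and libraries left out.

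Same-numbered control and scramble libraries correlated in their deviations from group means (r = 0.48, 0.21 and 0.17, each above 0.1). Control replicate 3, however, correlated more with scramble replicate 2 (r = 0.24) than with its own number. Pairing by number is thus not established, no label states it, and the main fit holds no pairing.

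The members and lists were chosen with earlier results of these data known, so no list was tested. Values per library are given for the 5 largest called rises and falls per subunit with 1C-MIM, for the smallest p between scramble and control, and for the highest and lowest FPKM. Up to 4 genes per pathway list, those with the smallest p, and the folate-using genes could be named. Gabpa and Yy1 are given besides, since motifs of their factor families were searched. Coordinates of printed sequences are GRCm38.p6, a different build from that of the files, and exon overlaps are by gene name.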

Additional observations from a re-analysis of the deposited data

How the results depend on the processing

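Of the 35 members called against control 24 stayed called under all 17 alternatives run for single genes, and of the 38 against scramble 24 did. 0 values of called members changed sign. The counts of rises stayed within 1.5 times under every alternative, except that small subunit rises against scramble were 10 at an adjusted p below 0.01. The few falls moved most, and the cause was not tested. For falls of large subunit genes against control, the count was 3 with library size alone, 2 with the replicate block, 0 at an adjusted p below 0.01, 0 to 3 with 1 library left out, 3 without the libraries numbered 1 and 0 without members that share exons with a protein-coding gene. For small subunit genes it was 0 with no filter, 0 with DESeq2, 2 with the replicate block, 0 at an adjusted p below 0.01, 0 with only the compared groups, 0 to 2 with 1 library left out and 3 without the libraries numbered 1. For falls of large subunit genes against scramble, the count was 0 with RLE, 3 with library size alone, 2 with a mean CPM filter, 0 with limma-voom, 3 with the replicate block, 0 at an adjusted p below 0.01, 2 with only the compared groups, 0 to 2 with 1 library left out, 4 without the libraries numbered 1 and 0 without members that share exons. For small subunit genes it was 0 to 1 with 1 library left out and 1 without the libraries numbered 1. Without the libraries numbered 1 the median against control was 0.15 in the small and 0.09 in the large subunit, and without control replicate 1 alone 0.16 and 0.09. With 1 library left out, the large subunit median for scramble against control was -0.07 to 0.02.

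No label says what a replicate number marks. Same-numbered libraries correlated in their deviations with r of 0.19, 0.08 and 0.10 (control and 1C-MIM) and 0.15, 0.04 and 0.03 (1C-MIM and scramble), so not every pair with 1C-MIM passed 0.1. All 9 same-numbered correlations were above 0, against 5 of 18 between different numbers, which is a hint from the data and not the design. Deviations from a group mean sum to 0 within the group, so positive same-numbered values push those between different numbers down. The contrast with different numbers is therefore not separate evidence of pairing. Control replicate 2 correlated more with 1C-MIM replicate 3 (0.11) than with its own number. With the replicate block, 0 genes were called between scramble and control, as without it. With the replicate block, rises were 24 large and 17 small against control and 25 large and 18 small against scramble, with 0 small subunit falls against scramble. Where an arm was left with 2 libraries, it was assumed to vary like the others, whose spread the fit shares. Depth was 29 to 33.2 M counts and members had mean counts of 378 to 2630, so with 3 libraries a group small differences can go uncalled.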
